A study of Mus musculus with 28 samples.

Results

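The transcripts of 10 mouse genes that drive the cell division cycle were followed through the conversion of Pre-B cells into macrophages: the D-type cyclins Ccnd1, Ccnd2 and Ccnd3, the E-type cyclins Ccne1 and Ccne2, the A-type cyclin Ccna2, the B-type cyclins Ccnb1 and Ccnb2, and the kinases Cdk1 and Cdk2. The genes were chosen by symbol, and all 10 were found among the 55450 genes of the expression table. The cells were C10, a mouse Pre-B line derived from HAFTL cells that carries the C/EBPαER transgene, a fusion of rat C/EBPα with the hormone-binding part of the estrogen receptor that enters the nucleus when β-estradiol is added. RNA-seq libraries were made from 3 biological replicates of uninduced cells (0h), and 3 more were made for each later time (1h, 12h and 48h), with 100 nM β-estradiol, IL-3 and CSF-1 added at the start. All 12 libraries carry the transgene, and no uninduced library of 1h, 12h or 48h was analysed here. Every comparison against 0h shares the same 3 libraries. Time in culture, the daily renewal of medium that the paper states, the cytokines, β-estradiol itself and C/EBPαER therefore cannot be told apart. C10 is 1 cell line, and the p-values measure the spread between these libraries only.

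Cyclins are regulatory subunits without enzyme activity of their own, and those of the E, A and B types are made and destroyed at set stages of the cycle. The D-type cyclins pair with Cdk4 and Cdk6 to begin the phosphorylation of the retinoblastoma protein, the E-type cyclins pair with Cdk2 at the entry into DNA replication, the A-type cyclin works with Cdk2 and then Cdk1 through replication, and the B-type cyclins pair with Cdk1 to bring the cell into mitosis. In the B lineage, Ccnd3 is known as the D-type cyclin that the expansion of Pre-B cells needs, and macrophages induce Ccnd1 when CSF-1 reaches them.

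Expression was read as TPM (transcripts normalised to a common library total), the abundance of a transcript per unit of length relative to all others in the library. TPM keep no record of depth, so no counting error could be attached to a value. A pair of overlapping genes at a ribosomal RNA locus took 70.3% to 82.9% of all TPM in a library, and the median log2 fold change of the 16412 genes tested was 0.59 for 1h, 0.34 for 12h and -0.18 for 48h, each against 0h. Values scaled by the median of ratios (mean size factors of 0.932 for 0h, 1.47 for 1h, 1.18 for 12h and 0.698 for 48h), which brings those medians near 0, are therefore given where they change a call or a direction and for the counts of calls; all other values, and the statements on overlap, are of TPM as deposited. A gene was called where its Benjamini-Hochberg adjusted p in limma was under 0.05 and its log2 fold change was beyond 1, a 2-fold difference on the log2(TPM + 0.1) scale. A total of 9 of the 10 genes had the mean of 0.1 TPM needed to be tested, and Ccnd2 did not. Since the RNA comes from whole cultures, fewer cycling cells and less transcript per cell cannot be told apart in any value below.

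**Figure D1:**
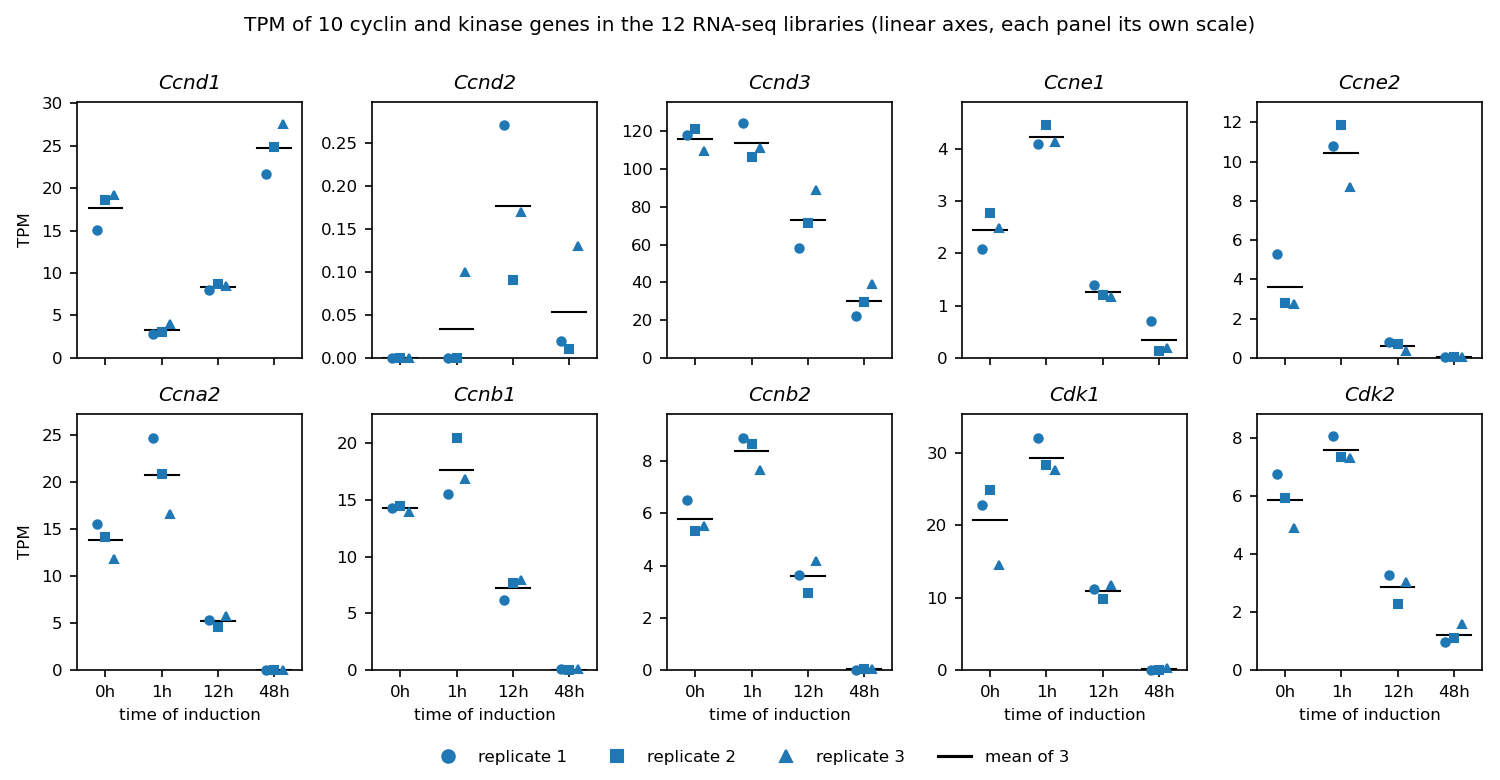
TPM of each of the 10 genes (vertical axes, linear, 1 scale per panel) at 0h, 1h, 12h and 48h of induction (horizontal axes); points are single libraries, with a symbol per replicate number, and black lines the mean of the 3 libraries. Ccna2, Ccnb1, Ccnb2 and Cdk1 lie near 0 at 48h, while Ccnd1 is lowest at 1h and highest at 48h.

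The D-type cyclins Ccnd1 and Ccnd3 went opposite ways from 1h to 48h, though both were below their 0h level at 12h. Ccnd1 fell within 1h, returned in steps and was at its highest at 48h, whereas Ccnd3, the most abundant of the 10 genes in every library, had much the same TPM at 0h and 1h and then declined. Ccnd2 was near absent throughout. Ccnd1 (GRCm38 chr7:144929931-144939925, minus strand) was measured at 15.1, 18.7 and 19.2 TPM in the 0h libraries, at 2.79, 3.03 and 4.01 TPM at 1h, at 7.94, 8.65 and 8.51 TPM at 12h and at 21.7, 24.8 and 27.5 TPM at 48h. No library of one time point overlapped those of another, and the order of the levels from highest to lowest was 48h, 0h, 12h and 1h. The drop at 1h, to a mean TPM 5.39-fold under that of 0h, had a log2 fold change of -2.40 ± 0.18 (SE, n = 3 against 3, limma adjusted p = 1.00e-05) and was larger after scaling, at -3.04. At 12h the log2 fold change against 0h was -1.06 ± 0.18 (limma adjusted p = 0.00094), close to the threshold: it came to -0.997 without 0h replicate 3 and to -0.988 with 1 added in place of 0.1, and neither of these counts as called. Between 1h and 12h Ccnd1 rose by 1.34 on the log2 scale (SE 0.18, limma adjusted p = 0.000298), and between 12h and 48h by 1.54 (SE 0.18, limma adjusted p = 6.80e-05). Against 0h, the 48h libraries were all higher, with a log2 fold change of 0.48 ± 0.18 (limma adjusted p = 0.0448) that stayed under the 2-fold threshold and reached 0.90 after scaling. This adjusted p was over 0.05 with no filter (0.103), with no trend in the limma prior (0.0835) and without 1 of several libraries (up to 0.147), so the higher level at 48h than at 0h is not secure on the deposited values. The sources do not state that the counting used strand, and LTO1, on the opposite strand, shares 23.4% of the exon bases of Ccnd1; reads of the pair cannot be told apart there. LTO1 was listed between 1.31 and 3.87 TPM over the 12 libraries and was at 1.72 to 2.52 TPM at 1h.

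Ccnd3 (chr17:47505051-47599691, plus strand) was measured at 118, 121 and 109 TPM in the 0h libraries, at 124, 106 and 111 TPM at 1h, at 58.0, 71.5 and 88.7 TPM at 12h and at 22.1, 29.6 and 39.1 TPM at 48h. The 0h and 1h libraries overlapped, and those of 12h and 48h lay below them and apart from each other. The log2 fold change against 0h was -0.031 ± 0.22 (SE, limma adjusted p = 0.940) at 1h, -0.69 ± 0.22 (limma adjusted p = 0.0305) at 12h and -1.97 ± 0.22 (limma adjusted p = 1.69e-05) at 48h, a mean TPM 3.84-fold lower. Only the 48h difference was called on the deposited values. After scaling the difference at 12h was called as well, at -1.03. The difference at 1h came to -0.69 after scaling (limma adjusted p = 0.0161) and stayed under the fold threshold. The scaled libraries of 0h (114 to 131) and 1h (69.6 to 83.6) did not overlap. Ccnd2 (chr6:127125162-127152193, minus strand) had 0 TPM in each of the 0h libraries, at 0, 0 and 0.10 TPM at 1h, at 0.27, 0.09 and 0.17 TPM at 12h and at 0.02, 0.01 and 0.13 TPM at 48h. When all 55450 genes were fitted without the filter, Ccnd2 had a log2 fold change of 1.42 at 12h against 0h (limma adjusted p = 0.0890), which did not pass.

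Within each library, where scaling plays no part, the D-type cyclin transcripts changed from nearly all Ccnd3 to a near balance of Ccnd3 and Ccnd1. Ccnd1 made up 13.2% ± 1.80 (SD, n = 3) of the TPM of the 3 genes in uninduced cells, 2.82% ± 0.65 after 1h, 10.5% ± 1.64 after 12h and 45.5% ± 4.14 after 48h. Its share in the 48h libraries ran from 41.2% to 49.5%, above every other library, the next highest being 14.9% at 0h. Ccnd2 never exceeded 0.408% of the sum. The sum itself does depend on scaling. As deposited, the TPM of the 3 genes added up to 134 ± 5.50 (SD, n = 3) in uninduced cells, to 117 ± 8.92 after 1h, to 81.3 ± 15.6 after 12h and to 55.0 ± 11.5 after 48h. After scaling it was 144 ± 13.3 in uninduced cells, 79.9 ± 7.69 after 1h, 68.7 ± 5.72 after 12h and 78.3 ± 9.59 after 48h, lower than in uninduced cells at every later time and with no further drop by 48h.

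**Figure D2:**
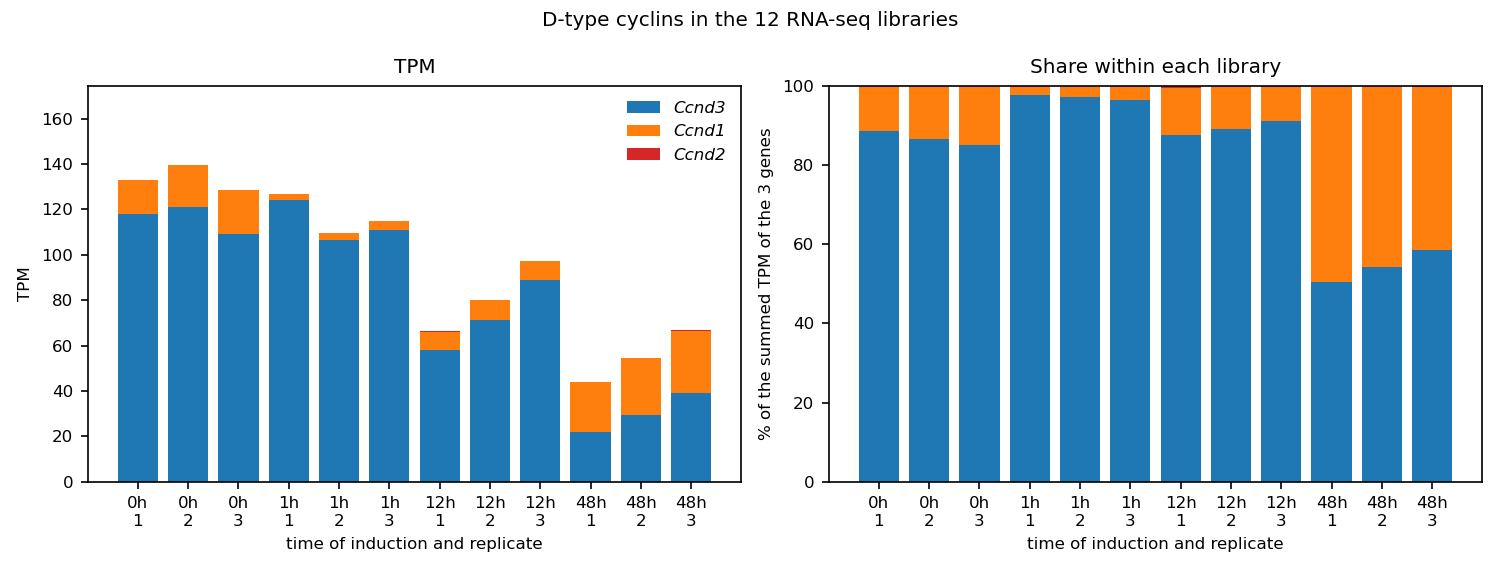
D-type cyclin transcripts in each of the 12 libraries (horizontal axes, time of induction over replicate number), as stacked TPM on the left and as percent of their sum on the right; blue is Ccnd3, orange Ccnd1 and red Ccnd2. Ccnd1 takes 41.2% to 49.5% of the sum in the 48h libraries and 2.20% to 3.49% in those of 1h.

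On deposited TPM the E-type cyclins were highest at 1h and lower at 12h and again at 48h, but only the 1h level of Ccne2 was above 0h in every library after scaling too. Ccne2 (chr4:11191351-11204779, plus strand) was measured at 5.27, 2.79 and 2.74 TPM at 0h, at 10.8, 11.8 and 8.69 TPM at 1h, at 0.81, 0.72 and 0.33 TPM at 12h and at 0.06, 0.06 and 0.03 TPM at 48h. The 4 time points did not overlap. Its rise at 1h was 2.90-fold in mean TPM, with a log2 fold change of 1.57 ± 0.33 (SE, limma adjusted p = 0.00683), and this call was lost after scaling, where the value was 0.92 (limma adjusted p = 0.117). Its fall was 16.8-fold between 1h and 12h, with a log2 fold change of -3.93 ± 0.33 (limma adjusted p = 1.67e-05) that held after scaling at -3.57. At 48h the log2 fold change against 0h was -4.56 ± 0.33 (limma adjusted p = 7.16e-07), a size that ran from -5.89 with 0.01 added to each TPM to -2.09 with 1 added. Ints8, on the opposite strand, shares 17.4% of the exon bases of Ccne2 and was at 1.61 to 2.65 TPM at 48h, where Ccne2 was at 0.06 TPM or less.

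In every library Ccne1 was the lower of the E-type pair at 0h and 1h and the higher at 12h and 48h. It (chr7:38097984-38107534, minus strand) was measured at 2.09, 2.77 and 2.48 TPM at 0h, at 4.09, 4.45 and 4.13 TPM at 1h, at 1.40, 1.20 and 1.17 TPM at 12h and at 0.70, 0.14 and 0.18 TPM at 48h. The time points did not overlap, but the first 48h replicate stood well above the other two. The log2 fold change was 0.77 ± 0.37 (SE, limma adjusted p = 0.15) at 1h and -0.90 ± 0.37 (limma adjusted p = 0.0916) at 12h, neither of them called (0.13 after scaling for 1h, limma adjusted p = 0.903, with overlapping libraries of 2.02 to 3.01 at 0h and 2.63 to 3.11 at 1h), and -2.75 ± 0.37 (limma adjusted p = 9.74e-05) at 48h, each against 0h. Without the first 48h replicate the last of these was -3.29 (limma adjusted p = 1.52e-06). Its fall from 1h to 12h was called, at -1.68 ± 0.37 (limma adjusted p = 0.00810), and was not after scaling, at -1.35 (limma adjusted p = 0.0563).

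The genes of replication and mitosis, Ccna2, Ccnb1, Ccnb2 and Cdk1, shared 1 course: no call at 1h against 0h, a lower level at 12h than at 1h and almost no transcript at 48h. Ccna2 (chr3:36564865-36572150, minus strand) was measured at 15.5, 14.2 and 11.8 TPM at 0h, at 24.7, 20.8 and 16.6 TPM at 1h, at 5.35, 4.55 and 5.72 TPM at 12h and at 0.04, 0.03 and 0 TPM at 48h. Cdk1, the mitotic kinase (chr10:69335146-69352938, minus strand), was at 22.8, 24.9 and 14.5 TPM at 0h, at 32.1, 28.3 and 27.6 TPM at 1h, at 11.2, 9.85 and 11.7 TPM at 12h and at 0, 0 and 0.32 TPM at 48h. In both genes every 48h library lay far below every other library. Ccnb1 (chr13:100778650-100786570, minus strand) was at 14.3, 14.5 and 14.0 TPM at 0h, at 15.5, 20.5 and 16.8 TPM at 1h, at 6.17, 7.71 and 7.95 TPM at 12h and at 0.06, 0 and 0.09 TPM at 48h. Ccnb2 (chr9:70407692-70421547, minus strand) was at 6.52, 5.32 and 5.53 TPM at 0h, at 8.89, 8.64 and 7.65 TPM at 1h, at 3.63, 2.95 and 4.17 TPM at 12h and at 0, 0.06 and 0.05 TPM at 48h. For these 4 genes the time points did not overlap either, and the 1h libraries were the highest on deposited TPM. After scaling Ccnb1 had 13.9 to 16.6 at 0h and 10.0 to 13.4 at 1h, so the order of 0h and 1h rests on the scale. An entry of 0 in this table can also be an estimate that failed, but the other 48h entries of the same genes were at most 0.32 TPM.

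At 48h the log2 fold change against 0h was -6.82 ± 0.21 for Ccna2 (SE, limma adjusted p = 1.36e-09) and -6.63 ± 0.24 for Ccnb1 (SE, limma adjusted p = 3.43e-09). It was -5.45 ± 0.23 for Ccnb2 (SE, limma adjusted p = 1.04e-08) and -6.98 ± 0.46 for Cdk1 (SE, limma adjusted p = 3.01e-07). The sizes of these values depend on the 0.1 added to each TPM: with 1 added they ran from -4.27 in Cdk1 to -2.71 in Ccnb2, and with 0.01 added from -9.30 to -7.38 in the same genes, all past both thresholds. At 12h only Ccna2 of these 4 genes was called against 0h, at -1.39 ± 0.21 (limma adjusted p = 0.000509), a mean TPM 2.66-fold lower. Ccnb1 had -0.97 ± 0.24 (limma adjusted p = 0.00931) and Ccnb2 -0.69 ± 0.23 (limma adjusted p = 0.0392), both under the fold threshold and both called after scaling, at -1.30 and -1.01. Cdk1 had -0.89 ± 0.46 (limma adjusted p = 0.170), with replicate 3 of 0h well below the other two. At 1h the log2 fold changes of the 4 genes against 0h ran from 0.29 to 0.57, and after scaling from -0.36 to -0.087, so that no direction can be given for them at that time. Exosc9, on the opposite strand, shares 12.5% of the exon bases of Ccna2 and was at 1.38 to 2.22 TPM at 48h.

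Cdk2, which works with the E-type cyclins and Ccna2, fell less than these. It (chr10:128697939-128705031, minus strand) was measured at 6.75, 5.92 and 4.89 TPM at 0h, at 8.05, 7.35 and 7.30 TPM at 1h, at 3.29, 2.26 and 3.04 TPM at 12h and at 0.98, 1.10 and 1.58 TPM at 48h. The time points did not overlap. The log2 fold change against 0h was 0.38 ± 0.22 (SE, limma adjusted p = 0.229) at 1h, where scaling turned it to -0.27 and no direction can be given, -1.01 ± 0.22 (limma adjusted p = 0.00502) at 12h and -2.19 ± 0.22 (limma adjusted p = 8.99e-06) at 48h, the last a mean TPM 4.80-fold lower. The value at 12h rested on the threshold: it moved to between -0.997 and -0.856 when the first or second 0h replicate or the second 12h replicate was left out, and to -1.34 after scaling.

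Promoter sequences are shown for both kinases and both B-type cyclins, whose windows hold letters of elements known from cell cycle promoters: sites of the E2F factors, the CHR element read by the DREAM complex and the CCAAT box read by NF-Y. RefSeq promoter windows of 250 bases before and 50 bases after the start (build GRCm38.p6) were matched for 6 of the 10 genes; Ccnd1, Ccnd2, Ccne2 and Ccna2 were not matched. The stretches lie before the RefSeq start and are written 5′ to 3′ on the strand of the gene, which is the minus strand in all 4. Capitals mark the letters searched on both strands: TTTCGCG for E2F with its variants TTTGGCG and also TTTCCCG and lastly TTTGCCG, then TTTGAA for the cell cycle homology region (CHR) and CCAAT for the CCAAT box, so that ATTGG and CGGGAAA are matches on the other strand.
Cdk1, chr10:69352913-69353082: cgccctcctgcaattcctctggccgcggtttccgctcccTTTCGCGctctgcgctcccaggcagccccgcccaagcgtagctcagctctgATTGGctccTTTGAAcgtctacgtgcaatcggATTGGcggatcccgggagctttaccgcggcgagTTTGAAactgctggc
Ccnb2, chr9:70421555-70421724: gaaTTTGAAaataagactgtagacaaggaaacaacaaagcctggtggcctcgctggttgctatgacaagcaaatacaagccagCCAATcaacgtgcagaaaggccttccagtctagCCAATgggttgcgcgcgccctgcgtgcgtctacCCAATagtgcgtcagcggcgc
Ccnb1, chr13:100786571-100786656: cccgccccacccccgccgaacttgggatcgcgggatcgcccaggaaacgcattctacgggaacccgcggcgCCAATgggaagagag
Cdk2, chr10:128705052-128705221: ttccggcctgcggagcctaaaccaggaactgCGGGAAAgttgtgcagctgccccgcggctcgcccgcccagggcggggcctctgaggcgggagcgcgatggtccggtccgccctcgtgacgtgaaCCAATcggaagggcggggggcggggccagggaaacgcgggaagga
In the whole 300-base windows, Cdk1 had 1 E2F match, 2 CHR matches and 3 CCAAT matches, and Ccnb2 had 2 CHR and 3 CCAAT matches. The printed stretch of Cdk1 leaves out the CCAAT match that begins at position -208 from the start. That of Ccnb2 leaves out the CHR match that begins at position 5, past the start. Ccnb1 had 2 CCAAT matches, of which the printed stretch holds 1, and Cdk2 had 1 E2F and 1 CCAAT match. No match was found in the window of Ccne1, and 1 of the 2 windows of Ccnd3 had a single CCAAT match. Of all 32851 windows, 6.70% held an E2F match, 17.9% a CHR match, 37.4% a CCAAT match and 6.95% both a CHR and a CCAAT match, while 11.7% held 2 or more CCAAT matches. A match describes the letters only, and none of these sites was assayed for binding here.

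Ratios within a library, again free of scaling, showed how far the kinases and cyclins parted. The ratio of Ccnb1 to Cdk2 TPM ran from 1.88 to 3.41 in the 9 libraries from 0h to 12h and was 0.0612, 0 and 0.0570 in those of 48h. The ratio of Ccnd3 to Cdk2 ran from 14.5 to 22.4 in the libraries of 0h and 1h, then 17.6 to 31.6 in those of 12h and 22.6 to 26.9 in those of 48h. For Ccnb1 the 48h libraries lay below all others, and for Ccnd3 they lay within the range of the others. The ratio of Ccne1 to Cdk2 ran from 0.310 to 0.605 through 12h and was 0.714, 0.127 and 0.114 at 48h, where the first replicate lay above all other libraries.

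**Figure D3:**
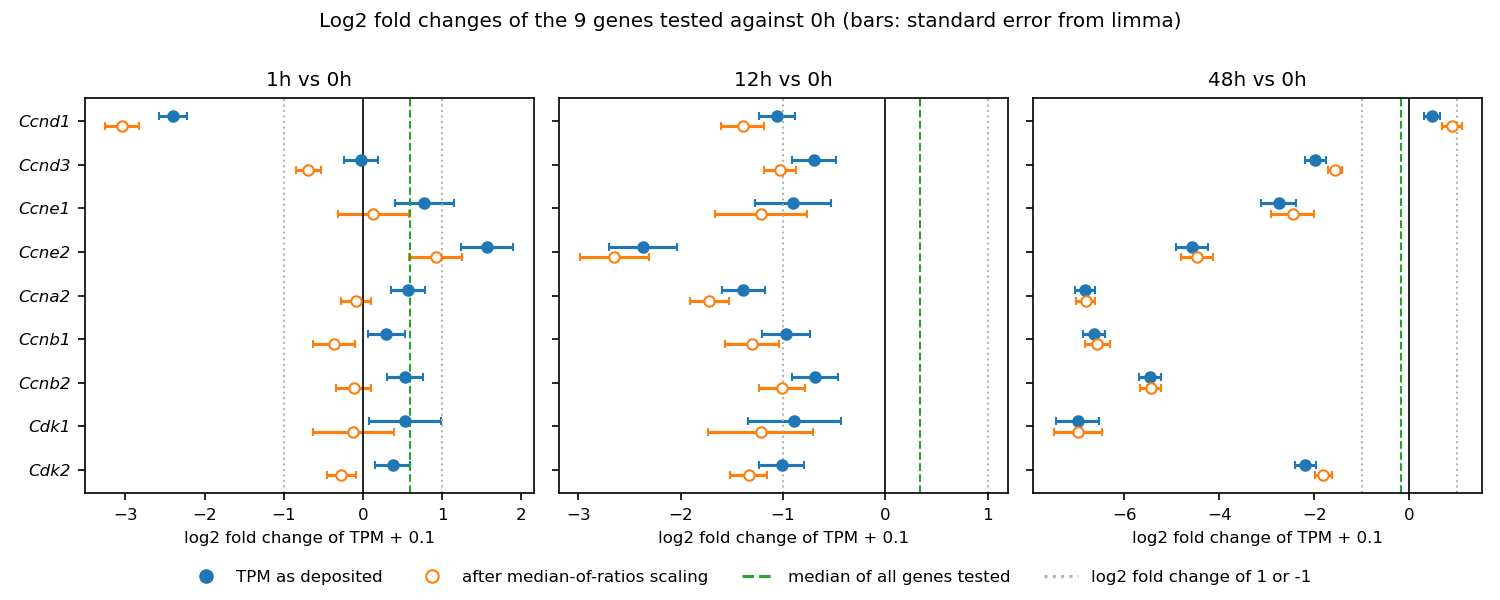
Log2 fold change of TPM + 0.1 (horizontal axes) of the 9 genes tested (vertical axis) at 1h, 12h and 48h against 0h, with standard errors from limma; filled points are deposited TPM, open points values after median-of-ratios scaling, green dashed lines the median of all genes tested and grey dotted lines a 2-fold difference. Ccnd1 is the lowest of the 9 at 1h, with -2.40, and the only 1 above 0 at 48h, with 0.48.

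Over the 9 genes tested, 1 (Ccne2) was called higher and 1 (Ccnd1) lower at 1h against 0h, where 16.7% of all genes tested were called higher and 1.08% lower. After scaling 0 were called higher and 1 lower, against 4.09% and 2.81% of all genes. At 12h against 0h, 0 were called higher and 4 lower (Ccnd1, Ccne2, Ccna2 and Cdk2), where 17.7% of all genes were called higher and 5.76% lower. Scaling raised the 4 to 7, with Ccnd3, Ccnb1 and Ccnb2 added, against 12.0% of all genes higher and 9.37% lower. At 48h against 0h, 0 were called higher and 8 lower, all but Ccnd1, on the deposited values and after scaling alike. Of all genes tested, 13.5% were called higher and 23.1% lower at 48h, and 19.7% and 17.5% after scaling. The median log2 fold change of the 9 genes against 0h was 0.53 after 1h, -0.97 after 12h and -4.56 after 48h, beside 0.59, 0.34 and -0.18 for all genes. With no fold threshold, Ccnd1 was the only one of the 9 with an adjusted p under 0.05 and a higher level at 48h.

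Libraries without overlap were common among all genes as well. At 1h against 0h the libraries did not overlap for 8 of the 9 genes on deposited TPM, 7 of them higher at 1h, where 44.1% of all genes tested had no overlap. After scaling this held for 6 of the 9, with only Ccne2 higher at 1h, beside 32.6% of all genes. All 9 genes had no overlap at 12h against 0h, at 48h against 0h, at 12h against 1h and at 48h against 12h, where 43.1%, 50.0%, 39.3% and 45.0% of all genes had none. After scaling Ccne1 and Cdk2 overlapped between 12h and 48h, which left 7 of the 9, beside 34.6% of all genes.

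Between neighbouring time points, 1 gene (Ccnd1) was called higher and 7 lower at 12h against 1h, where 5.50% of all genes were called higher and 10.6% lower. Ccnd3, the one not called, had a log2 fold change of -0.66 ± 0.22 (SE, limma adjusted p = 0.0466). Scaling left 3 of the 7, Ccne2, Ccna2 and Cdk2, beside 5.64% of all genes called lower and 7.73% higher. On the deposited values Cdk1 was the least secure of the 7 (limma adjusted p = 0.0456, and over 0.05 whenever a 1h or 12h library was left out). At 48h against 12h, Ccnd1 was called higher and the other 8 lower, where 3.55% of all genes were called higher and 23.8% lower. Scaling kept 5 of the 8, Ccne2, Ccna2, Ccnb1, Ccnb2 and Cdk1, beside 7.68% of all genes called lower and 7.60% higher, and took Ccnd3, Ccne1 and Cdk2 to -0.53, -1.24 and -0.47.

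The partner kinases of the D-type cyclins fell with Ccnd3. Cdk4 was at 49.5, 49.8 and 48.0 TPM at 0h and at 4.28, 7.48 and 8.07 TPM at 48h, with a log2 fold change of -2.92 ± 0.22 (SE, limma adjusted p = 9.89e-07). Cdk6 was at 24.0, 28.6 and 27.7 TPM at 0h and at 3.37, 3.72 and 7.78 TPM at 48h, with -2.51 ± 0.27 (SE, limma adjusted p = 1.45e-05). Both were already called lower at 12h, at -1.26 and -1.74. Ccnf, an F-box protein of the cyclin family, had -4.73 at 48h, so that all 3 tested of the 5 other cell cycle cyclins and kinases listed fell. Ccna1 and Ccnb3, cyclins of the germ line, had too little transcript to be tested. At 48h against 0h, 13.5% of all genes tested were called higher and 23.1% lower. The 23 tested cyclins and kinases that serve transcription or other tasks had a median log2 fold change of -0.22 then. Of these 23, 2 were called higher and 2 lower. Those called higher were Ccng2, at 1.83 ± 0.37 (SE, limma adjusted p = 0.00162), and Ccng1, at 1.45 ± 0.23 (SE, limma adjusted p = 0.000332), which encode cyclins tied to growth arrest and the p53 response. Those called lower were Ccnh, the partner of Cdk7, at -1.34, and Cdk10, named after its value was seen, at -1.05, and neither passed after scaling.

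Among the inhibitors of the kinases, Cdkn1a, which encodes the broad inhibitor p21, was called higher than 0h at each later time. It was measured at 1.51, 2.17 and 0.90 TPM at 0h, at 4.89, 5.14 and 3.89 TPM at 1h, at 15.0, 15.1 and 16.8 TPM at 12h and at 22.3, 24.5 and 22.1 TPM at 48h, with no overlap between time points. Its log2 fold change against 0h was 1.61 ± 0.25 (SE, limma adjusted p = 0.00135) at 1h, which scaling lowered to 0.97 and so under the fold threshold, 3.35 ± 0.25 (limma adjusted p = 2.98e-06) at 12h and 3.90 ± 0.25 (limma adjusted p = 2.86e-07) at 48h. Of all genes tested, 13.5% were called higher and 23.1% lower at 48h. Of the 6 inhibitors tested, Cdkn2b was also called higher at 48h, at 1.5 ± 0.36 (SE, limma adjusted p = 0.00480), and Cdkn2c was called lower, at -2.97 ± 0.42 (SE, limma adjusted p = 0.000123). These encode inhibitors of Cdk4 and Cdk6. Cdkn1b, which encodes p27, had 0.76 ± 0.33 (SE, limma adjusted p = 0.0835) and was called only after scaling, at 1.17, as was Cdkn2a, named after its value was seen, at 1.14.

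Most of the genes listed for the control of the kinases and for the destruction of cyclins were lower by 48h. All 8 genes listed for switching the kinases on and off were called lower against 0h, with a median log2 fold change of -3.89, among them Pkmyt1, an inhibitory kinase of Cdk1, at -5.32, and the small kinase-binding proteins Cks1b, at -5.11, and Cks2, at -4.80. After scaling 7 of these 8 passed. Of all genes tested, 23.1% were called lower at 48h, and 17.5% after scaling. Of the 8 genes listed for the destruction of cyclins, 6 were called lower, including Cdc20, an activator of the anaphase-promoting complex, at -5.88, and Fbxo5, its inhibitor, at -4.38. Ube2c, the ubiquitin-conjugating enzyme of that complex, was at 16.0, 14.2 and 12.6 TPM at 0h, at 11.3, 13.2 and 10.2 TPM at 12h and had 0 TPM in each of the 48h libraries. At 12h, 2 of the 8 genes of each list were called lower, where 5.76% of all genes tested were.

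Some of the transcription factors that act upstream of the cyclins were lower by 12h. Of the 19 genes listed for the retinoblastoma family, the E2F factors and the DREAM complex, 8 were called lower and 1 higher at 12h, and 14 lower and 1 higher at 48h. Of all genes tested, 5.76% were called lower and 17.7% higher at 12h, and 23.1% lower and 13.5% higher at 48h. Mybl2, which encodes the B-Myb factor of mitotic promoters, was at 6.64, 8.26 and 6.75 TPM at 0h and at 0.88, 0.38 and 0.97 TPM at 12h, with a log2 fold change of -3.19 ± 0.30 (SE, limma adjusted p = 1.58e-05). E2f2, an activating E2F factor, was at 2.01, 1.65 and 1.86 TPM at 0h and at 0.14, 0.12 and 0.14 TPM at 12h, with -3.05 ± 0.25 (SE, limma adjusted p = 4.81e-06). Foxm1, the forkhead factor of mitotic genes, had -1.02 at 12h and -3.89 at 48h. The gene called higher at both times was Rb1, named after its values were seen, at 1.47 at 12h and 1.20 at 48h. All 16 proliferation markers listed were called lower at 48h, with a median log2 fold change of -5.19, and 11 of them at 12h, with a median of -2.20. The replication genes Rrm2 and Mcm5 had -2.67 and -2.43 at 12h and -6.38 and -6.18 at 48h, and Top2a, a topoisomerase of dividing cells, had -1.19 and -6.31. Mki67, which encodes the Ki-67 antigen, was at 14.6, 11.4 and 10.0 TPM at 0h, at 9.24, 7.91 and 7.78 TPM at 12h and at 0.07, 0.15 and 0.05 TPM at 48h, with -0.51 ± 0.23 (SE, limma adjusted p = 0.12) at 12h and -6.01 ± 0.23 (limma adjusted p = 6.68e-09) at 48h.

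**Figure D4:**
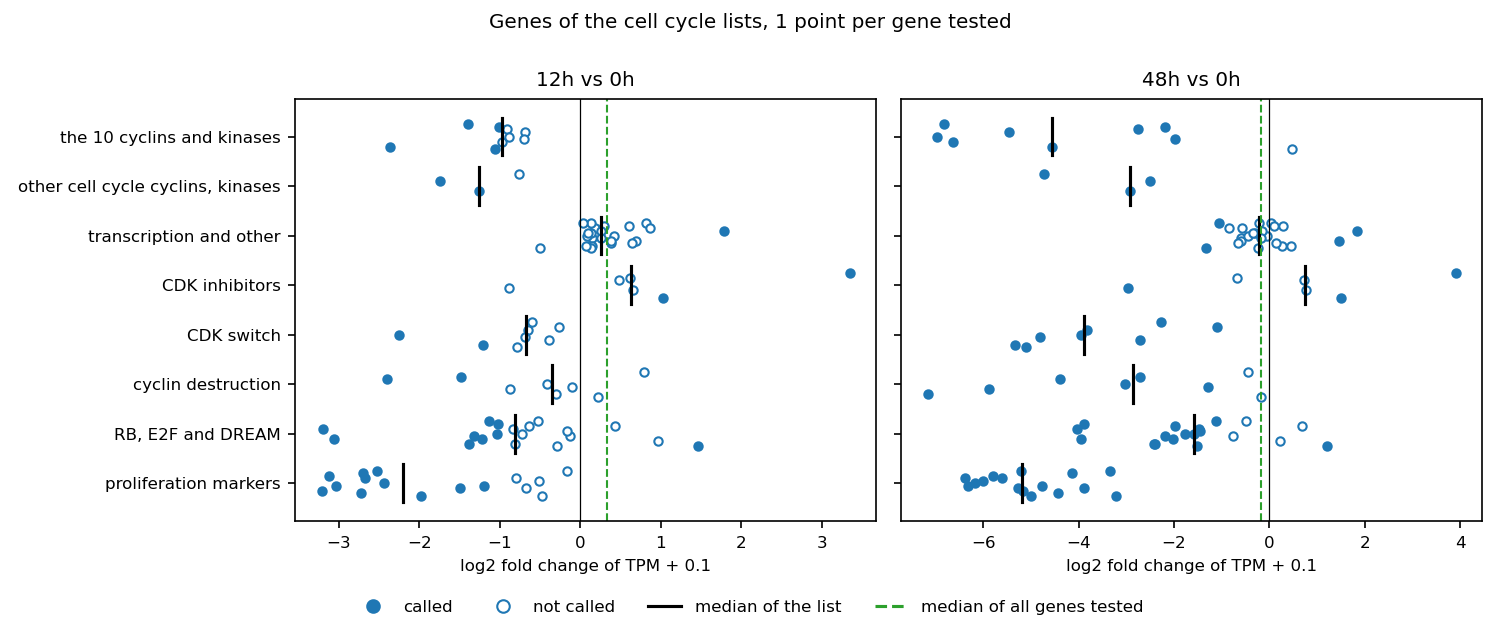
Log2 fold change of TPM + 0.1 (horizontal axes) at 12h and 48h against 0h for each gene tested of 8 lists (vertical axis); filled points were called, open points were not, black bars are list medians and green dashed lines the median of all genes tested. All 16 proliferation markers and all 8 switch genes are filled and below 0 at 48h, while most of the 23 transcription and other cyclins and kinases are open and near the median of all genes.

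The genes whose course over the 12 libraries was most like that of 4 of the cyclins, among 9331 genes with a mean of at least 1 TPM, are given here as a description, since libraries of 1 time point share most of their expression. For Ccnb1 they were Dnaja3 (Pearson r = 0.995), Asns (r = 0.995) and Plk1 (r = 0.994), and for Ccne1 they were Sgo1 (r = 0.983), Spc25 (r = 0.981) and Nrde2 (r = 0.979), all over log2(TPM + 0.1). Plk1, Sgo1 and Spc25 encode a mitotic kinase, a guardian of centromeric cohesion and a kinetochore subunit. For Ccnd3 they were Nhp2 (r = 0.994) and the histone genes Hist1h2bl (r = 0.994) and Hist1h2bg (r = 0.994). Ccnd1, with its early dip, was most like Fos (r = 0.950), Zfp36l2 (r = 0.942) and Gfi1b (r = 0.932). Fos, an immediate early gene, was at 11.7, 10.6 and 8.94 TPM at 0h, at 1.55, 2.04 and 2.06 TPM at 1h, at 6.90, 8.53 and 10.3 TPM at 12h and at 19.7, 24.6 and 32.1 TPM at 48h.

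Promoter Capture Hi-C, which enriches chromatin ligation products for fragments that hold promoters, was used to count the interactions listed for each gene. The authors merged the replicates into 1 list per time point, so there is no replicate error, and a difference between time points was not tested. Each of the 10 genes had 1 captured fragment, and that of Cdk2 also holds the start of Pmel. The captured fragment of Ccnd3 holds its upstream RefSeq start. Its other RefSeq start lies in a fragment 85.9 kb away that was listed only as a partner. The counts for Ccnd3 thus leave out other interactions of that start. Those of Ccnd3 and Ccne1 include some with fragments that hold further starts of the same gene. The 23193 genes with a captured fragment had a median of 5 interactions at each time point. Ccnd2, almost silent in these cells, had the most of the 10: 55 before induction, 64 after 1h, 71 after 12h and 78 after 48h, with 53 listed at all 4 times. Ccnd1 came next, with 40, 30, 43 and 27 interactions in the same order of time. The count at 1h, when its transcript was lowest, was not the lowest of the 4.

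At the other end were Ccnb1 and Cdk1, which are among the genes with almost no transcript at 48h. Ccnb1 had 2, 1, 0 and 0 interactions at 0h, 1h, 12h and 48h, and Cdk1 had 0, 1, 0 and 1, from captured fragments of 1454 and 3300 bases. The fragments of Ccne2 and Ccnb2, which had more interactions, were 1620 and 3122 bases long, and a link of length and count was not tested. The counts of Ccnb1 and Cdk1 were under the median of 5 at 0h too, when both genes were transcribed. Ccnb2, which followed the same course of expression, had 14, 17, 11 and 18 interactions, and Ccna2 had 8, 6, 3 and 5. Ccne1 had 20, 26, 22 and 14, Ccne2 17, 20, 11 and 10, Ccnd3 8, 10, 6 and 6, and Cdk2 23, 18, 9 and 18. Over the 10 genes, 187 interactions were listed before induction, 193 after 1h, 176 after 12h and 177 after 48h. Of the 187 at 0h, 63.6% (95% Wilson interval 56.5 to 70.2) were also listed at 1h, 63.1% (56.0 to 69.7) at 12h and 62.0% (54.9 to 68.7) at 48h. For all 138769 interactions of 0h the shares were 57.6%, 53.2% and 55.9%. Ccnd2 gave 55 of the 187, and without it 50.0% (41.6 to 58.4) of the other 132 were listed again at 1h, 47.7% (39.4 to 56.2) at 12h and 46.2% (37.9 to 54.7) at 48h, so that the pooled shares above those of all interactions rest on this 1 gene. The intervals cover counting error only, and interactions of 1 fragment are not independent. When an interaction within 10 kb counted as the same, the shares for the 10 genes were 90.4%, 81.8% and 85.6%, those without Ccnd2 86.4%, 74.2% and 79.5%, and those of all interactions 85.6%, 82.2% and 80.9%.

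**Figure D5:**
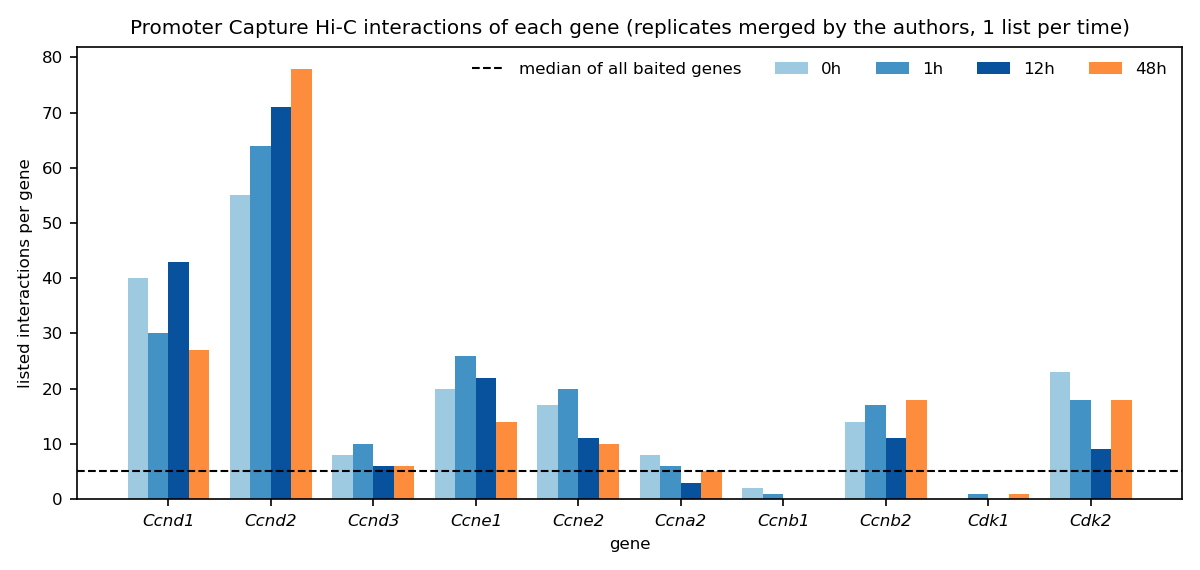
Number of Promoter Capture Hi-C interactions listed for each of the 10 genes (vertical axis, linear, from 0) at 0h, 1h, 12h and 48h (bars), from 1 merged list per time point without error bars; the dashed line is the median of 5 over all genes with a captured fragment. Ccnd2 has the tallest bars, from 55 to 78, and Ccnb1 and Cdk1 have between 0 and 2.

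The identity of the cells changed over the same hours. The summed TPM of 9 Pre-B markers was 194 to 227 in uninduced cells, 120 to 135 after 1h, 32.2 to 41.9 after 12h and 20.5 to 25.3 after 48h. Between 12h and 48h, 2 of the 9 were called lower and 0 higher, beside 23.8% and 3.55% of all genes tested. After scaling 2 were called lower and 1 higher, beside 7.68% and 7.60% of all genes. Mean TPM as deposited fell over this interval from 9.50 to 1.10 for Igll1 and from 5.54 to 0.527 for Vpreb3. It rose from 3.04 to 3.73 for Pax5 and from 2.09 to 3.61 for Blnk, and Cd79b was lowest at 1h, at 5.10. The sum of 10 macrophage markers was 12.1 to 13.1 in uninduced cells, 35.4 to 43.4 after 1h, 463 to 587 after 12h and 1075 to 1266 after 48h. Between 12h and 48h, 7 of the 10 were called higher and 0 lower, and 8 higher and 0 lower after scaling. Mmp12 (mean of 491 TPM) and Ctsc (359 TPM) made up most of the sum at 48h. Lyz2 had a mean of 207 TPM at 12h and 109 TPM at 48h. Some of these markers were picked by the study from the same samples and are no independent evidence of the change. Of other cells, 5 T cell markers summed to at most 0.18 TPM and 5 erythroid markers to at most 0.93 TPM in any library. The sum of 7 neutrophil markers rose from at most 0.54 TPM before induction to 7.93 to 14.3 TPM at 12h, with 4 of the 7 at 0 in all 3 libraries then, and was 0.85 to 1.77 TPM at 48h. Both neutrophil markers that could be tested were called higher at 12h, with a median log2 fold change of 4.59 (4.31 after scaling). Of all genes tested, 17.7% were called higher then, and 12.0% after scaling. On deposited TPM the fall of the mitotic genes to near 0 at 48h came with the lowest Pre-B and the highest macrophage sums. Ccnd1, lowest at 1h, followed neither sum. The median log2 fold change of the 9 Pre-B markers from 12h to 48h was -0.11, and 0.057 after scaling. The order of their 12h and 48h levels thus rests on the scale. The part of cell identity in these values was not tested.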

How the data were processed

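RNA-seq was analysed for 12 libraries (3 at each of 4 time points) and Promoter Capture Hi-C for 4 merged lists; Hi-C was not used here. The authors merged technical replicates, trimmed reads with Trim Galore 0.6.2, mapped them to mm10 with HISAT2 2.1.0, named RSEM in their notes and deposited TPM. The deposited 0h interaction list holds a CHiCAGO score per interaction; the unit of the whole numbers in the other lists is not given in the sources used here, and they were not used. TPM are no counts, so the 16412 genes with a mean of at least 0.1 TPM entered a linear model in limma 3.58.1 (R 4.3.3, lmFit, contrasts, eBayes with a trend) on log2(TPM + 0.1), all 12 libraries in 1 model, with p-values adjusted over all genes by the Benjamini-Hochberg method. This scale understates changes of low genes. The thresholds follow the study's adjusted p and fold change. Interactions were assigned to a gene where the captured fragment holds a transcription start site of GENCODE M21, and motifs were searched with Python 3.11.15. Tested on simulated data for 48h against 0h over 16412 genes, the model called 49 of 50 and 46 of 50 genes with log2 changes of 3 and -3, 34 of 50 and 32 of 50 with 1.5 and -1.5, and 9 of 16212 unchanged genes. The changed genes were drawn from those with a 0h mean over 1 on the log2(TPM + 0.1) scale. Values were independent normal draws with an SD of at most 1 and no shift between libraries. The simulation thus does not cover errors from scaling or changes of lower genes. Alternatives varied the pseudocount, filter, scaling, trend, libraries, replicate block and thresholds. The genes and lists were chosen with earlier results of these data known. Besides the 10 genes, the text names from each other list up to 3 called genes with the largest change at 48h and a mean of at least 1 TPM, Cdk4, Cdk6, Cdkn1a, Cdkn1b and Mki67, and the 3 genes most like each of Ccnb1, Ccne1, Ccnd1 and Ccnd3.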

Additional observations from a re-analysis of the deposited data

How the results depend on the processing

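The 8 genes called lower at 48h against 0h passed under each pseudocount, filter, scaling, trend, block and left-out library run. Under median-of-ratios scaling, and under rescaling without the 20 most abundant genes, 0 genes were called higher at 1h, 3 lower at 12h against 1h and 5 lower at 48h against 12h; the first of these scalings also called 7 lower at 12h against 0h. The median-of-ratios scaling turned the 1h difference of Ccna2 to -0.087, Ccnb1 to -0.36, Ccnb2 to -0.12, Cdk1 to -0.13 and Cdk2 to -0.27, and the other rescaling that of Ccnb1 to -0.20 and Cdk2 to -0.11. With 1 added to TPM, 2 were called lower at 12h and 5 at 48h against 12h; with 0.01 added, 4 at 12h against 1h. With no fold threshold, 7 were lower at 12h and 1 higher at 48h, each against 0h. With a log2 threshold of 2, 0 were higher at 1h, at 12h against 1h and at 48h against 12h, and 1 was lower at 12h against 0h, 1 at 12h against 1h and 5 at 48h against 12h. No share of all genes called was obtained under the other pseudocounts, the other thresholds and the other rescaling. The counts under those settings therefore cannot be set against all genes. Scaling changed list counts by over 1.5 times to 0 transcription and other genes lower at 48h, 1 inhibitor higher at 12h, 4 inhibitors higher at 48h and 2 retinoblastoma and E2F genes higher at 48h; other list counts moved by at most 2. Leaving out 1 library kept 257 of 270 gene values on their side of the thresholds; 10 lost a call, 2 gained one, and Ccnd3 at 1h turned to 0.016 without the second 1h replicate (from -0.095 to 0.016 over the left-out libraries). The number of genes called lower at 12h against 0h then ran from 3 to 5. Except where scaling or a threshold sets the count by construction, the cause of these shifts was not tested.

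The replicate numbers were not taken as a pairing, since not every same-number pair correlated over 0.1: 5 of 6 pairs did for replicate 1, 0 of 6 for replicate 2 and 6 of 6 for replicate 3 (from -0.042 to 0.42). A replicate block moved the calls over all genes against 0h from 2924 to 2896 for 1h, 3848 to 3812 for 12h and 6010 to 6024 for 48h, and lost 1 call of the 9 genes, Cdk1 at 12h against 1h (limma adjusted p = 0.0589).

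The interactions of 0h that were listed again within 10 kb came to 90.4% at 1h, 81.8% at 12h and 85.6% at 48h. Without Ccnd2, an alternative chosen after seeing the data, exact matches came to 50.0%, 47.7% and 46.2%. A total of 67 of the 187 at 0h had a CHiCAGO score of at least 10. TPM hold no depth, so values under about 0.1 TPM, such as those of Ccnd2 and of the mitotic genes at 48h, have no stated error and 0 cannot be told from a low level.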
